A study of Mus musculus with 6 samples.

Results

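The 10 genes described here belong to the BCL2 family, the proteins that set whether the outer membrane of the mitochondrion is opened during apoptosis. They were taken from the deposited expression table by gene symbol (Bcl2, Bcl2l1, Mcl1, Bax, Bak1, Bcl2l11, Bbc3, Pmaip1, Bid and Bad), and all 10 were found among its 21878 genes. Of these, 9 had a mean of at least 1 FPKM (fragments scaled to gene length and to the depth of the library) over the 6 libraries and were tested. Each of the 9 was above 1 FPKM in every library, so none entered the test through one medium alone. Pmaip1 was listed at 0 throughout.

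The RNA came from B16F10, an established mouse melanoma line, labelled wild type and time 0. Of the 6 libraries, 3 came from cells kept in DMEM and 3 from cells kept in RPMI-1640, both common basal media, each with 10% fetal bovine serum and antibiotics. HG in the DMEM titles is left unexplained, and a further code there, a 3 for DMEM and a 1 for RPMI-1640, runs wholly with the medium and cannot be told apart from it. DMEM replicate 3 alone carries L3 where the other titles have L2, also without explanation; its counts differed most from those of its medium (chi-square per degree of freedom 21.3 and 25.6, against 4.42 to 8.24 in the other pairs of replicates), and without it Mcl1 was called while the other 8 tested members kept their calls and directions. Every label also prints a protocol for turning confluent cells into fat cells with dexamethasone, isobutylmethylxanthine and insulin, which is not a melanoma culture step. All 6 adipocyte markers examined were under 1 FPKM in every library, with Fabp4, Lep and Cfd at 0 and a summed level of 0.172 to 0.614 FPKM in DMEM and 0 to 0.148 in RPMI-1640. A single line limits the comparison to these cells, and separate cultures are not stated for the 3 libraries of either medium, so the spread behind the p-values may be only technical.

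Apoptosis through mitochondria is controlled by the balance of 3 kinds of BCL2 family protein. The survival proteins BCL2, BCL-XL (Bcl2l1) and MCL1 hold in check the effectors BAX and BAK (Bak1), which form pores in the outer mitochondrial membrane and let cytochrome c out. The BH3-only proteins BIM (Bcl2l11), PUMA (Bbc3), NOXA (Pmaip1), BID and BAD carry stress signals to them by occupying the groove of the survival proteins or, for some, by activating the effectors. In the melanocyte lineage Bcl2 is a known target of the transcription factor MITF. Transcript levels of these genes do not give protein levels, and several of the proteins, MCL1, BID and BAD among them, are known to be controlled by degradation, cleavage or phosphorylation.

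With FPKM as deposited, Bcl2 was the member that rose in RPMI-1640, by 2.33-fold, while Bcl2l1, Bax, Bak1, Bcl2l11, Bid and Bad were lower there, by 1.20-fold to 1.89-fold, and Mcl1 and Bbc3 did not pass the test. When the trend of the values with gene length and GC content was removed, Bbc3 was also higher and Bak1 no longer passed. In all, 7 of the 9 tested members were called (limma, Benjamini-Hochberg adjusted p under 0.05 over all tested genes), 1 higher and 6 lower. Over all 10624 tested genes 76.0% were called, 40.6% higher and 35.4% lower in RPMI-1640, so the share of members called was near that of genes in general. The median log2 fold change (RPMI-1640 minus DMEM, on log2(FPKM + 1), which understates the change of low genes) was -0.32 over the members and 0.033 over all tested genes. There was no overlap between the media in FPKM for 7 of the 9 members and for 79.0% of all tested genes. With the trend removed, 2 members were higher and 5 lower, beside 74.0% of all genes called (37.2% higher and 36.8% lower); after scaling to a common total, 1 was higher and 5 lower, beside 76.5% (51.5% higher and 25.0% lower).

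**Figure D1:**
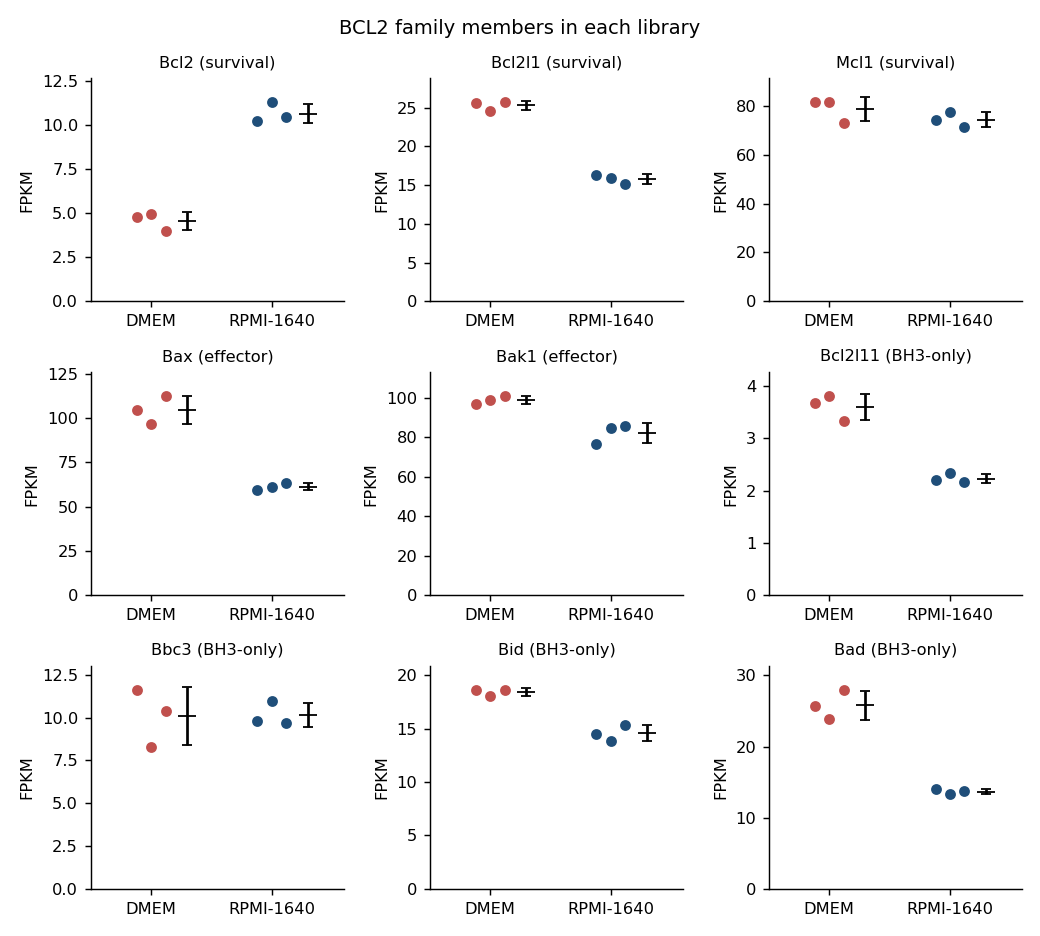
FPKM of the 9 tested members in each library (points, 3 for each medium, replicate 1 to 3 from left to right), with the mean and SD beside them (dash and bars); every axis starts at 0. The 3 RPMI-1640 points lie above all DMEM points for Bcl2, below them for Bcl2l1, Bax, Bak1, Bcl2l11, Bid and Bad, and overlap them for Mcl1 and Bbc3.

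Recovered library totals ran from 36960000 to 46404000 reads, and the 9 tested members had at least 370 reads in every library. Melanocyte lineage markers were high in every library, summing over 7 genes to 12964 to 13199 FPKM in DMEM and 10677 to 10833 in RPMI-1640. Pmel, Dct and Sox10 were lower in RPMI-1640, Mitf and Tyr were higher, and Mlana and Tyrp1 overlapped between the media. Markers of other cells stayed low. Of 5 fibroblast markers 4 were under 1 FPKM throughout, with Dcn at 0. The other, Col1a2, was 0.518 to 0.623 FPKM in DMEM and 2.85 to 3.50 in RPMI-1640. The fibroblast sum was 1.21 to 1.48 in DMEM and 3.61 to 4.30 in RPMI-1640. Of 4 macrophage and leukocyte markers 3 were under 1 FPKM, with Ptprc and Adgre1 at 0. The other, Cd68, made up nearly all of a sum of 2.43 to 2.76 in DMEM and 1.67 to 1.82 in RPMI-1640. In such bulk RNA, fewer cells with a transcript and less of it per cell cannot be told apart. Across 10323 genes the log2 fold change rose with gene length (Spearman rho 0.46) and fell with GC content (rho -0.47), and single libraries of a medium differed along the same properties. The fold change of each member is therefore given as deposited and with this trend removed; the part of fragmentation or other library steps in that trend was not tested. Summed FPKM was also lower in RPMI-1640, and scaling all libraries to a common total moved the median log2 fold change of all genes by 0.15 and the split of calls from 4316 higher and 3762 lower to 5471 higher and 2659 lower.

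Promoters are shown for 3 members of 3 different roles, each called under both treatments of the trend. Bcl2l1, Bid and Bad were also called under both and are not shown. Those shown are Bcl2, the survival gene that was higher in RPMI-1640, and the lower genes Bax, an effector, and Bcl2l11, a BH3-only gene. Each is the RefSeq promoter of build GRCm38.p6, 250 bases before to 50 after a start site, written 5′ to 3′ on the strand of the gene. Bcl2 lies at chr1:106714241-106714540 (minus strand), Bax at chr7:45466849-45467148 (minus strand) and Bcl2l11 at chr2:128125788-128126087 (plus strand; the first of its 2 promoters in the table). Capitals mark a match to a searched motif.
Bcl2: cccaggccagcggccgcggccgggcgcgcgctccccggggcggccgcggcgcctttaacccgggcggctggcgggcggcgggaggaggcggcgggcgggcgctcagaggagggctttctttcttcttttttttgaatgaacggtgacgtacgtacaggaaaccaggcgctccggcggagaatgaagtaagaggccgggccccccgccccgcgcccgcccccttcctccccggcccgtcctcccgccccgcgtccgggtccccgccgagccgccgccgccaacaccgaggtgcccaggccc
Bax: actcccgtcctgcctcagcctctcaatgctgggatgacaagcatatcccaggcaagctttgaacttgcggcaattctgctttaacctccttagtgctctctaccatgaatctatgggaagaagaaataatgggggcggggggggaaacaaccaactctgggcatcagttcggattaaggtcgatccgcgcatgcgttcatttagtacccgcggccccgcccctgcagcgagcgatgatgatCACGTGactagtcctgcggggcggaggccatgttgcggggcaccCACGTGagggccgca
Bcl2l11: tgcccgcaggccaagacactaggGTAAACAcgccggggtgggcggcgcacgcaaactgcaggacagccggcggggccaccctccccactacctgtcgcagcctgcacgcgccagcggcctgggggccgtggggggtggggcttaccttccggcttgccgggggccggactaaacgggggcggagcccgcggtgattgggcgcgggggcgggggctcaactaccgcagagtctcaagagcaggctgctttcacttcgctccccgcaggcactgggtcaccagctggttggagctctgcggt
The Bcl2 promoter is 76.0% G and C with 44 CpG dinucleotides, the Bcl2l11 promoter 71.0% with 27 and the Bax promoter 57.3% with 19. The letters searched, on both strands, were CACGTG (the E-box bound by MITF and MYC), TGTTTAC (forkhead factors such as FOXO3), TGATGNAA (the core of the composite element of ATF4 and C/EBP) and TGACGTCA (the cyclic AMP response element); no match of one overlapped a match of another. Bax holds CACGTG at 9 bases before and again at 35 bases after the start site, and Bcl2l11 holds the forkhead letters on the opposite strand (GTAAACA as printed), 227 bases before its start site. Over 15 promoters of 9 members, CACGTG was present in 2 (Bax and 1 of Bbc3), TGTTTAC in 2 (Bcl2l11 and another of Bbc3), and the other motifs in 0. Among all 32851 RefSeq promoters of this length the shares were 7.15% for CACGTG, 3.65% for TGTTTAC, 3.97% for TGATGNAA and 1.79% for TGACGTCA. A match describes these letters and is no evidence of binding.

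Among the survival genes, Bcl2 and Bcl2l1 moved in opposite directions and Mcl1, the most abundant of them, did not pass the test. Bcl2 (chr1:106538178-106714274, minus strand, GRCm38), the founding member, whose protein blocks pore formation at mitochondria, measured 4.77, 4.94 and 3.97 FPKM in DMEM replicates 1 to 3 and 10.2, 11.3 and 10.4 in RPMI-1640 replicates 1 to 3. All RPMI-1640 libraries were above all DMEM libraries, at means of 10.6 ± 0.559 against 4.56 ± 0.516 FPKM (SD, n = 3 each). The log2 fold change was 1.07 (SE 0.080, 95% interval 0.89 to 1.24; limma adjusted p = 3.96e-07), and 0.73 (SE 0.055; adjusted p = 7.62e-07) with the trend removed. Bcl2l1 (chr2:152780668-152831728, minus strand), which encodes BCL-XL and a shorter, proapoptotic splice form that gene-level FPKM does not separate, measured 25.6, 24.6 and 25.7 FPKM in DMEM and 16.3, 15.9 and 15.1 in RPMI-1640. The media did not overlap; means were 25.3 ± 0.605 in DMEM and 15.8 ± 0.631 in RPMI-1640, 1.6-fold higher in DMEM. This gave a log2 fold change of -0.65 (SE 0.054; adjusted p = 7.90e-07), and -0.43 (SE 0.046; adjusted p = 1.02e-05) with the trend removed.

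Mcl1 (chr3:95658788-95663176, plus strand), which encodes a short-lived survival protein, measured 81.4, 81.4 and 72.9 FPKM in DMEM and 74.3, 77.3 and 71.2 in RPMI-1640. The groups overlapped because DMEM replicate 3 lay within the RPMI-1640 range. Its log2 fold change was -0.079 with a 95% interval of -0.20 to 0.043 (limma adjusted p = 0.214; exact two-sided permutation test, p = 0.3), and 0.083 after scaling to a common total. Without DMEM replicate 3 the value was -0.13 and passed (adjusted p = 0.019). With the trend removed it was -0.076 (adjusted p = 0.148), which passed only when the replicate number was also a block (adjusted p = 0.0399). With 3 libraries in each medium the smallest p of the permutation test is 0.1, which the 7 called members reached.

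The effector genes were both lower in RPMI-1640 as deposited, Bax more than Bak1. Bax (chr7:45461697-45466898, minus strand), whose protein moves from the cytosol to mitochondria when activated, measured 105, 96.7 and 112 FPKM in DMEM and 59.6, 61.3 and 63.2 in RPMI-1640. The lowest DMEM library was well above the highest RPMI-1640 library, with means of 104.6 ± 7.89 and 61.4 ± 1.78 FPKM, 1.70-fold higher in DMEM. The log2 fold change of Bax was -0.76 (SE 0.057; adjusted p = 4.31e-07). With the trend removed it was -0.27 (SE 0.032; adjusted p = 2.25e-05), a smaller difference in the same direction for a transcript of 63.5% GC. Bak1 (chr17:27019810-27029009, minus strand), whose protein resides in the mitochondrial outer membrane, measured 96.8, 98.9 and 100.8 FPKM in DMEM and 76.5, 84.7 and 85.7 in RPMI-1640. The media did not overlap as deposited, at 98.8 ± 2.04 against 82.3 ± 5.04 FPKM, 1.20-fold higher in DMEM. The log2 fold change of Bak1 was -0.26 (SE 0.052; adjusted p = 0.00071), but -0.099 (adjusted p = 0.089) after scaling to a common total and 0.072 (SE 0.042; adjusted p = 0.143) with the trend removed, so its call and, for the latter, its direction rest on how the values are scaled.

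**Figure D2:**
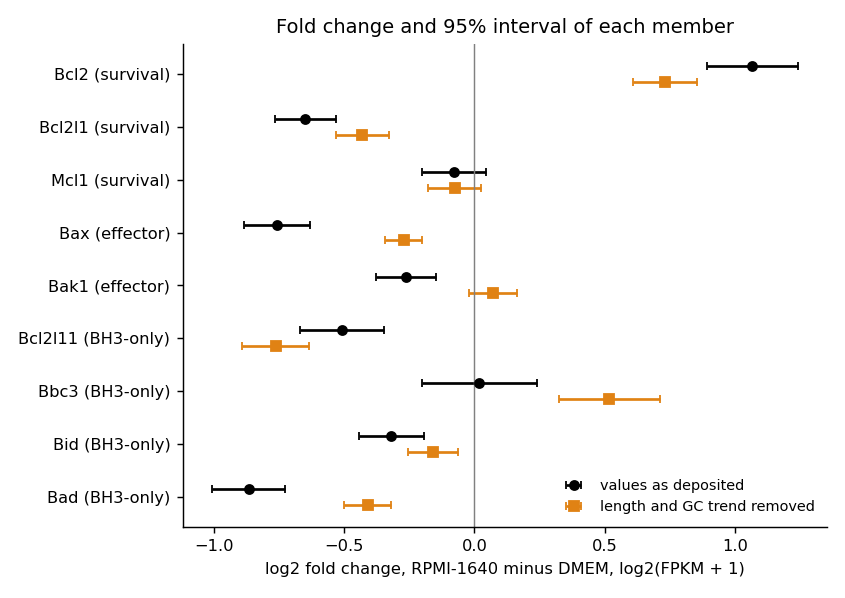
Log2 fold change of each tested member (RPMI-1640 minus DMEM on log2(FPKM + 1)) with its 95% interval, as deposited (black circles) and with the length and GC trend removed (orange squares). Bcl2 stays above 0 and Bcl2l1, Bax, Bcl2l11, Bid and Bad below 0 in both, while Bak1 moves from -0.26 to 0.072 and Bbc3 from 0.018 to 0.52.

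Among the BH3-only genes, Bad, Bcl2l11 and Bid were lower in RPMI-1640 and Bbc3 was not called as deposited. Bad (chr19:6941861-6951899, plus strand), whose protein binds BCL2 and BCL-XL and is held inactive when survival kinases phosphorylate it, measured 25.6, 23.9 and 27.96 FPKM in DMEM and 14.0, 13.3 and 13.7 in RPMI-1640. No library of one medium reached the other, and the means of 25.8 ± 2.06 and 13.7 ± 0.344 FPKM made it 1.89-fold higher in DMEM, the largest fold among the 6 lower members. On the log2 scale its fold change was -0.87 (SE 0.063; adjusted p = 3.44e-07), and -0.41 (SE 0.041; adjusted p = 5.91e-06) with the trend removed. Bcl2l11 (chr2:128126038-128162547, plus strand), which encodes BIM, a binder of all survival proteins and an activator of BAX and BAK, measured 3.67, 3.81 and 3.32 FPKM in DMEM and 2.20, 2.33 and 2.16 in RPMI-1640. It was the least abundant member detected, without overlap between the media, at 3.60 ± 0.249 against 2.23 ± 0.0867 FPKM or 1.61-fold higher in DMEM. Its log2 fold change was -0.51 (SE 0.074; adjusted p = 6.59e-05), and in contrast to Bax and Bad it was larger, -0.76 (SE 0.058; adjusted p = 8.20e-07), with the trend removed.

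Bid (chr6:120891930-120916853, minus strand), whose protein is cleaved by caspase-8 and so links death receptors to mitochondria, measured 18.6, 18.02 and 18.6 FPKM in DMEM and 14.5, 13.9 and 15.3 in RPMI-1640. The media did not overlap, at 18.4 ± 0.340 against 14.6 ± 0.734 FPKM, 1.26-fold higher in DMEM. For Bid the log2 fold change was -0.32 (SE 0.057; adjusted p = 0.00031), and -0.16 (SE 0.043; adjusted p = 0.0065) with the trend removed. Bbc3 (chr7:16308393-16318205, plus strand), which encodes PUMA, a p53 target that binds all survival proteins, measured 11.6, 8.28 and 10.4 FPKM in DMEM and 9.80, 10.97 and 9.70 in RPMI-1640. DMEM replicates 1 and 2 held the highest and the lowest of the 6 values, and the means were 10.1 ± 1.69 and 10.2 ± 0.704 FPKM. Its log2 fold change was 0.018 with a 95% interval of -0.20 to 0.24 (adjusted p = 0.877; exact two-sided permutation test, p = 1), and 0.52 (SE 0.087; adjusted p = 0.00030) with the trend removed. Its transcript has 65.2% GC, the highest of the members. Pmaip1 (chr18:66458533-66465565, plus strand), which encodes NOXA, a partner mainly of MCL1, was listed at 0 in all 6 libraries and was not tested. At its longest annotated transcript, 2727 bases, 3 reads would have given 0.0237 to 0.0298 FPKM, a limit that covers counting error only. An exact 0 in such a table can also be a failed estimate; 99 of the 487 genes of chromosome 18 (20.3%) were at 0 throughout, against 19.3% to 42.9% on the other chromosomes.

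Reads of overlapping genes limit some of these values, since the sources used here do not say whether counting used strand. In the annotation, exons of Bad overlap Gpr137 over 20.5% of their length, those of Bid overlap Bcl2l13 over 17.7%, those of Bak1 overlap Ggnbp1 over 7.35% and a locus listed only by identifier over 18.2%, and those of Bcl2 overlap D630008O14Rik over 6.09%, all on the opposite strand, while Bax overlaps Gm45808 over 12.2% on the same strand. Mcl1, Bcl2l1, Bcl2l11 and Bbc3 have no such overlap.

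**Figure D3:**
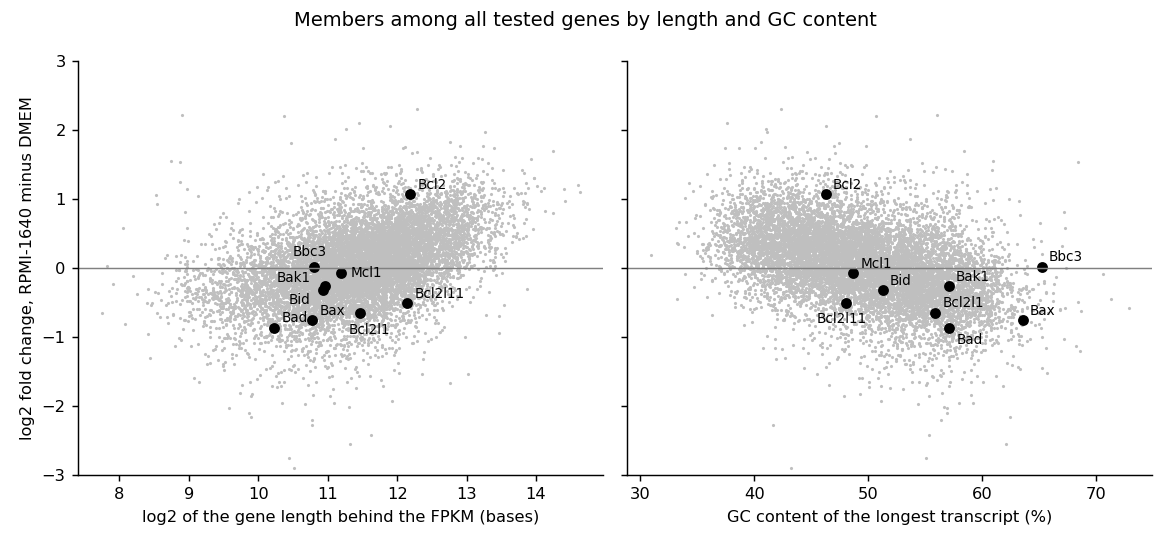
Log2 fold change (RPMI-1640 minus DMEM) against log2 of the gene length behind the FPKM (left) and against GC content of the longest transcript (right) for 10323 genes (grey) with the 9 tested members in black; 1 gene outside ±3 is not shown. Genes that are longer or poorer in GC lie higher. Bad, the shortest member by the length behind the FPKM though not by longest transcript, lies farthest left among the members in the first panel. Bax and Bbc3, the richest in GC, lie farthest right among them in the second.

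In order of level, with FPKM compared per gene length, DMEM cells had Bax and Bak1 at the top with overlapping values, then Mcl1, then Bad and Bcl2l1 with overlapping values, then Bid, Bbc3, Bcl2 and Bcl2l11, each separated from the next. In RPMI-1640 cells Bak1 and Mcl1 led with overlapping values, followed by Bax, then by Bcl2l1, Bid and Bad, whose neighbours overlap, then by Bcl2 and Bbc3, which overlap, and by Bcl2l11. Bcl2 stood below Bbc3 in every DMEM library and slightly above it in every RPMI-1640 library, although their ranges there overlap. This order is of FPKM as deposited. With the trend removed, Bcl2 was below Bbc3 in every RPMI-1640 library too (log2 values 3.30, 3.44 and 3.38 against 3.69, 3.83 and 3.66). That removal acts only on the deviation of each library from the mean of a gene. Any length or GC effect common to all libraries remains, so these values cannot settle the order of genes within a library. Among all tested genes, the mean FPKM of Bcl2 exceeded 20.1% of genes in DMEM and 39.0% in RPMI-1640, that of Bad 68.4% and 47.1%, that of Bax 92.8% and 87.4%, and that of Mcl1 89.6% and 89.9%.

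Ratios of members within a library do not depend on how that library is scaled, but they still carry the length and GC trend. They are given as values without a test. The ratio of Bax to Bcl2 was 21.9, 19.6 and 28.3 in DMEM and 5.84, 5.44 and 6.06 in RPMI-1640, 4.02-fold higher in DMEM. The ratio of Bcl2l11 to Bcl2 was 0.768, 0.771 and 0.836 in DMEM and 0.216, 0.207 and 0.207 in RPMI-1640, 3.77-fold higher in DMEM. Both ratios were separated without overlap, and both combine a higher denominator with a lower numerator in RPMI-1640. On the log2(FPKM + 1) scale the fold change of Bax minus that of Bcl2 was -1.83 as deposited and -1.004 with the trend removed. The same difference for Bcl2l11 was -1.58 and -1.50. The added 1 sets these differences apart from the change of the ratios and lets them depend on library scaling. As deposited, the log2 change of the ratio itself was -1.99 for Bax to Bcl2 and -1.91 for Bcl2l11 to Bcl2. Bcl2 to Bcl2l1, a ratio chosen after the values were seen, was 0.187, 0.201 and 0.155 in DMEM. In RPMI-1640 it was 0.626, 0.709 and 0.691, 3.73-fold higher. The difference of their log2 fold changes was 1.72 as deposited and 1.16 with the trend removed, and the log2 change of the ratio itself was 1.91 as deposited.

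Set against Mcl1, Bcl2l1 was at 0.314, 0.302 and 0.352 in DMEM and 0.220, 0.206 and 0.212 in RPMI-1640, and Bcl2l11 at 0.0450, 0.0468 and 0.0456 in DMEM and 0.0297, 0.0301 and 0.0304 in RPMI-1640, each 1.52-fold higher in DMEM. By contrast, the ratio of Bax to Bcl2l1 (3.93 to 4.38 in DMEM, 3.65 to 4.19 in RPMI-1640) and that of Bak1 to Mcl1 (1.19 to 1.38 and 1.03 to 1.20) overlapped between the media. For Bcl2l1 to Mcl1 the difference of log2 fold changes was -0.57 as deposited and -0.35 with the trend removed. For Bcl2l11 to Mcl1 it was -0.43 and -0.69. As deposited, the log2 change of the ratio itself was -0.60 for Bcl2l1 to Mcl1 and -0.61 for Bcl2l11 to Mcl1. The differences of log2 fold changes of Bax to Bcl2l1 (-0.11 and 0.16) and Bak1 to Mcl1 (-0.18 and 0.15) changed sign. Summed by role as deposited, the survival genes came to 108 ± 5.08 FPKM in DMEM and 101 ± 3.89 in RPMI-1640, with overlap. The effectors came to 203 ± 9.02 and 144 ± 6.69 and the BH3-only genes to 57.9 ± 3.45 and 40.6 ± 0.265, both without overlap. Unlike ratios, these sums depend on library scaling, and they carry the length and GC trend too. Sums without that trend were not computed, so both drops hold for deposited values only. Removing the trend took Bax from -0.76 to -0.27 and Bak1 from -0.26 to 0.072 on the log2 scale. Bad went from -0.87 to -0.41, Bid from -0.32 to -0.16 and Bbc3 from 0.018 to 0.52. Bcl2l11 went the other way, from -0.51 to -0.76. Within the survival sum, Mcl1 supplied 72.4% in DMEM and 73.8% in RPMI-1640, Bcl2l1 23.4% and 15.7%, and Bcl2 4.2% and 10.6%.

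**Figure D4:**
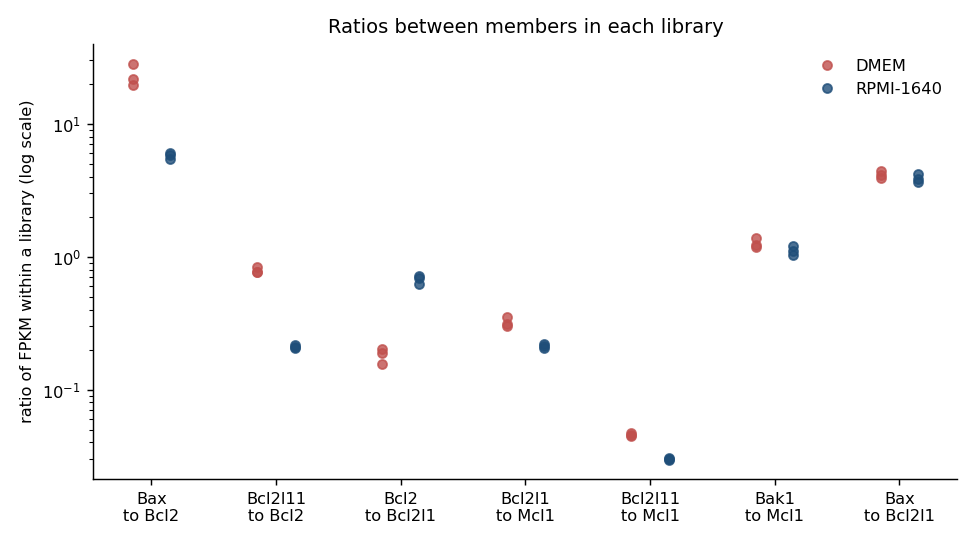
Ratio of the FPKM of 2 members in each library, on a log scale, for DMEM (red) and RPMI-1640 (blue), 3 libraries each. With FPKM as deposited, the ratios to Bcl2 and the ratio of Bcl2 to Bcl2l1 are 3.73-fold to 4.02-fold apart. Those of Bak1 to Mcl1 and Bax to Bcl2l1 overlap.

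Whether the libraries of a medium varied independently from member to member was not tested. As deposited, DMEM replicate 3 was the highest DMEM library for Bcl2l1, Bax, Bak1, Bid and Bad and the lowest for Bcl2, Mcl1 and Bcl2l11. With the trend removed it was not the highest for Bcl2l1, Bax, Bak1, Bid or Bad but still the lowest for Bcl2, Mcl1 and Bcl2l11. Across 10323 genes the deviation of that library from its medium followed gene length with rho -0.48 and GC content with rho 0.64, while DMEM replicate 2 had 0.57 and -0.41. The lower Bcl2 of DMEM replicate 3 and the lower Bbc3 of DMEM replicate 2 stand beside these values, and their part in them was not tested. The genes whose levels followed Bcl2 most closely over the 6 libraries, by Pearson correlation of log2(FPKM + 1), were Fermt2 (35.7 FPKM in DMEM, 51.8 in RPMI-1640), Igf2bp1 (1.77 and 3.52) and Zgrf1 (1.76 and 4.72). As 914 genes had a correlation over 0.99 with Bcl2, these 3 are a description of 6 libraries in 2 groups.

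The rest of the pathway was read from 6 lists holding 92 genes outside the members, of which 72 were tested. Of these, 30 were higher and 21 lower in RPMI-1640, and 21 did not pass; with the trend removed the counts were 31 and 27, and after scaling to a common total 43 and 11. The 51 called genes are 70.8% of those tested, beside 76.0% of all tested genes (40.6% higher and 35.4% lower). The median log2 fold change of the 72 was 0.090. With the trend removed 80.6% were called, beside 74.0% of all genes (37.2% higher and 36.8% lower). After scaling to a common total the share was 75.0%, beside 76.5% (51.5% higher and 25.0% lower). As deposited, all 4 other family genes tested were called, and the share called was 77.8% of the 9 members, 70.0% of 10 apoptosome and caspase genes, 66.7% of 9 inhibitors and released proteins, 66.7% of 6 death receptor genes and 68.0% of 25 partners.

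Of the 14 other BCL2 family genes only 4 were tested, and 3 were higher and 1 lower (beside 76.0% of all genes called). With the trend removed 2 were higher and 2 lower (beside 74.0% of all genes). After scaling to a common total 3 were higher and 0 lower (75.0%, beside 76.5%). Bcl2l2, which encodes the survival protein BCL-W, had DMEM and RPMI-1640 means of 4.27 ± 0.199 and 5.34 ± 0.0851 FPKM (log2 fold change 0.27; 0.13 with the trend removed, not passing when the replicate block was added, adjusted p = 0.056). Bmf, a BH3-only gene whose protein is held at the cytoskeleton, had 2.16 ± 0.0870 and 1.61 ± 0.171 (-0.27; -0.33), and did not pass after scaling to a common total (-0.17, adjusted p = 0.081). Bcl2l12 had 10.6 ± 0.508 and 12.5 ± 0.551 (0.22; 0.70), and Bcl2l13 24.6 ± 0.704 and 27.5 ± 0.0655 (0.16, which turned to -0.27).

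Downstream of the pores, 4 apoptosome and caspase genes were higher, 3 lower and 3 not called among 10 tested (70.0% called, beside 76.0%). With the trend removed 5 were higher, 3 lower and 2 not called, beside 74.0% of all genes called. After scaling to a common total 6 were higher, 0 lower and 4 not called. Under that scaling 76.5% of all genes were called, 51.5% higher and 25.0% lower. Casp2, an initiator caspase, rose 1.94-fold from 25.5 ± 0.434 to 49.4 ± 1.21 FPKM (log2 fold change 0.93, 0.90 with the trend removed; limma adjusted p = 3.06e-08 as deposited). Dffb, the nuclease that cuts DNA in apoptosis, had 1.06 ± 0.181 and 2.48 ± 0.531 FPKM (0.75; 0.96). Casp8, which cleaves BID, had 23.3 ± 0.630 and 29.9 ± 0.691 (0.35; 0.26), opposite in direction to Bid. Cycs, the cytochrome c that the pores release, had 117 ± 9.003 and 114 ± 2.29 and did not pass as deposited (log2 fold change -0.032, or 0.13 after scaling to a common total), but was lower and passed with the trend removed (-0.33, adjusted p = 6.50e-06), while Apaf1, its partner in the apoptosome, had 10.9 ± 1.21 and 13.8 ± 0.593 (0.32, which turned to -0.19).

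Among 9 tested inhibitors of apoptosis and proteins released from mitochondria, 4 were higher, 2 lower and 3 not called (66.7% called, beside 76.0%). With the trend removed 5 were higher and 1 lower (66.7%, beside 74.0% of all genes). After scaling to a common total 6 were higher and 0 lower (66.7%, beside 76.5%). Birc6, a giant inhibitor of apoptosis that is also a ubiquitin ligase, rose 2.81-fold from 6.82 ± 1.15 to 19.2 ± 0.196 FPKM (log2 fold change 1.38, 0.47 with the trend removed). Xiap, the direct inhibitor of caspases, had 7.24 ± 1.05 and 13.1 ± 1.15 (0.78), and Birc2 6.10 ± 0.458 and 8.04 ± 0.607 (0.35), but neither passed with the trend removed (0.0064 and 0.069). Of 6 tested genes of the death receptor arm, 1 was higher, 3 lower and 2 not called (66.7% called, beside 76.0%). With the trend removed 1 was higher and 4 lower (83.3%, beside 74.0% of all genes). After scaling to a common total 2 were higher and 2 lower (66.7%, beside 76.5%). Tradd, an adaptor of the TNF receptor, had 18.01 ± 1.82 and 9.72 ± 0.609 (-0.82; -0.39), and Tnfrsf1a, the receptor, 59.9 ± 2.14 and 46.3 ± 1.63 (-0.37; -0.080, not passing). Cflar, the inhibitor of caspase-8 activation, had 12.002 ± 1.05 and 14.2 ± 0.646 (0.23, which turned to -0.33).

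Of 25 genes whose products bind, modify or degrade BCL2 family proteins, all tested, 7 were higher, 10 lower and 8 not called (68.0%, beside 76.0%). With the trend removed 6 were higher and 14 lower (80.0% called, beside 74.0% of all genes). After scaling to a common total 12 were higher and 7 lower (76.0%, beside 76.5%). Usp9x, a deubiquitinase that stabilises MCL1, had 12.4 ± 2.44 and 25.1 ± 0.191 FPKM (log2 fold change 0.98; 0.079, not passing, with the trend removed). Itpr1, a calcium channel of the endoplasmic reticulum that BCL2 binds, had 10.9 ± 1.53 and 21.0 ± 0.0296 (0.89; 0.30), and Ywhaz, a 14-3-3 protein of the family that holds phosphorylated BAD, had 93.1 ± 4.81 and 163 ± 4.06 (0.81; 0.60). The dynein light chains that tether BIM and BMF were both lower and stayed so with the trend removed, Dynll1 at 103 ± 7.27 and 67.6 ± 3.63 (-0.60; -0.58) and Dynll2 at 121 ± 5.33 and 69.0 ± 0.737 (-0.80; -0.61).

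The list of transcription factors known to act on BCL2 family genes also holds Trib3, a pseudokinase, which was among the higher genes (log2 fold change 0.54). Of its 18 tested genes, 11 were higher, 2 lower and 5 not called, or 72.2% called beside 76.0% of all tested genes. After scaling to a common total 14 were higher and 2 lower (88.9% called, beside 76.5% of all genes, 51.5% higher and 25.0% lower). With the trend removed 12 were higher and 3 lower (83.3%, beside 74.0%). Among those induced by stress, Atf3 had 12.3 ± 0.159 and 25.1 ± 1.03 FPKM (log2 fold change 0.97; 1.16 with the trend removed), Ddit3, which encodes CHOP, 75.7 ± 1.80 and 129 ± 1.83 (0.76; 0.81), and Atf4 334 ± 5.64 and 552 ± 13.8 (0.72; 1.08). Sp1 had 14.5 ± 1.74 and 26.6 ± 0.997 (0.84; 0.16) and Myc 10.5 ± 0.213 and 18.6 ± 0.369 (0.77; 0.95). Trp53, which encodes p53, the activator of Bax, Bbc3 and Pmaip1 transcription, had 84.7 ± 5.55 and 104 ± 2.73 (0.29; 0.54), and Mitf 55.8 ± 6.59 and 81.5 ± 4.12 (0.54; 0.11).

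**Figure D5:**
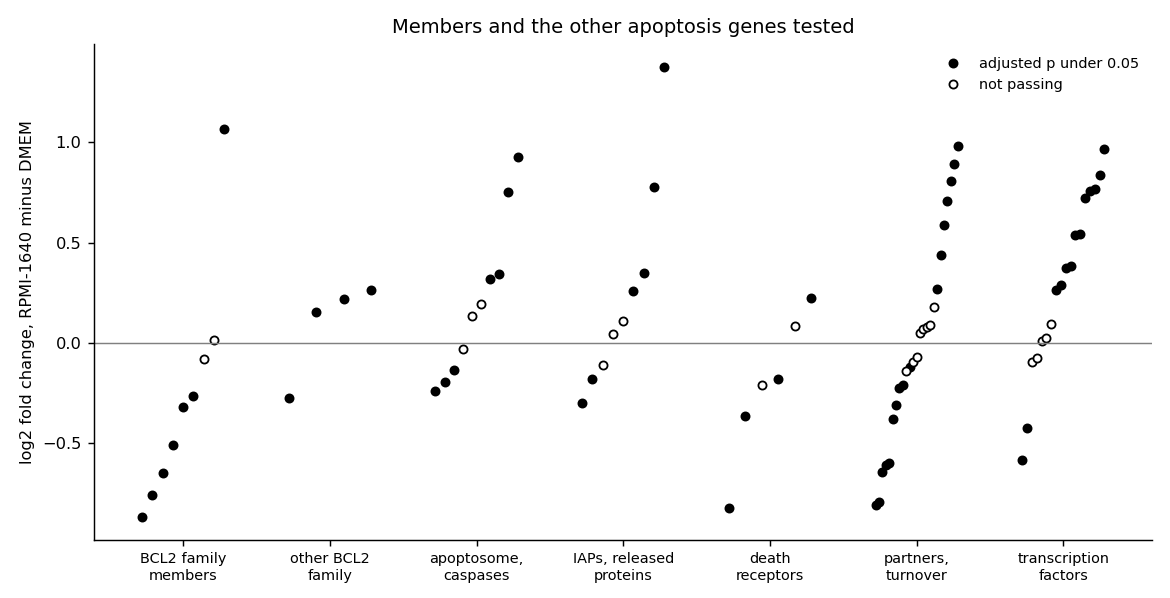
Log2 fold change (RPMI-1640 minus DMEM) of the 9 tested members and of the 72 other tested apoptosis genes by list, as deposited, sorted within each list; filled points passed the test and open points did not. Members lie below 0 except for Bcl2 and Bbc3, and most filled points of the list of transcription factors, which also holds Trib3, lie above 0.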

How the data were processed

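The deposited table holds FPKM per gene and library, computed by the authors from libraries made with a SMARTer mRNA-seq kit from 2 µg of total RNA, per the labels' protocols. The builds GRCm38 and mm10 are named per the submitters' processing notes; the aligner, counter, annotation and strand setting were not given in the sources used here. Libraries were grouped by the medium in their labels. The test was limma 3.58.1 (lmFit, then eBayes with its trend option; R 4.3.3), two-sided, on log2(FPKM + 1) of genes whose mean reached 1 FPKM, with Benjamini-Hochberg adjustment over all 10624 genes. The step was tested on simulated data. Permutation tests used scipy 1.17.1, tables pandas 2.3.3 and numpy 2.4.6, and figures matplotlib 3.10.9, in Python 3.11.15.

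Whole reads, within a tolerance of 0.003, were recovered from the steps of the FPKM values for 10623 of the 10624 tested genes. A fit with limma voom on those reads was an alternative. Library totals came from 858 genes with a single transcript, of which 98 shared the commonest total, so they are estimates. Every pair of replicates differed beyond counting noise. Positions, GC content and overlaps were taken from GENCODE M21 by symbol, and promoters from RefSeq (GRCm38.p6). For the length and GC trend, natural splines (5 degrees of freedom) were fitted to each library's deviation from the mean of each gene, and the fit was subtracted.

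Deviations of libraries with the same replicate number correlated at 0.151, 0.150 and 0.382 across genes, all over 0.1, which met the rule for pairing from the data alone; the main test has no block. Unlike numbers came close (0.131 for DMEM 1 with RPMI-1640 2 and 0.137 for DMEM 2 with RPMI-1640 1). With the trend removed the same-number values were 0.0567, 0.0408 and 0.151 and DMEM 1 with RPMI-1640 2 gave 0.0727, so the pairing is uncertain.

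All 10 members were named, with up to 3 called genes of largest change from each list. Bcl2l13, Dynll1, Dynll2, Ddit3, Atf4, Trp53, Mitf, Apaf1 and Cycs were added after their values were seen. Some results are not reported here. The members and lists were chosen with earlier results of these data known.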

Additional observations from a re-analysis of the deposited data

How the results depend on the processing

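Of the members, Bcl2, Bcl2l1, Bax, Bcl2l11, Bid and Bad kept their direction and their call under every alternative run, although Bcl2l11 was not tested at a mean of at least 5 FPKM. Scaling to a common total gave Mcl1 0.083 (log2 fold change, adjusted p = 0.256), Bak1 -0.099, Cycs 0.13 and Bmf -0.17, the last no longer passing. Removal of the length and GC trend gave Cycs -0.33, which then passed, Bak1 0.072, Bbc3 0.52, Apaf1 -0.19, Bcl2l13 -0.27 and Cflar -0.33, and the same values with the replicate block added, where Mcl1 at -0.076 passed (adjusted p = 0.0399) and Bcl2l2 at 0.13 no longer did (adjusted p = 0.056). Median ratio scaling gave Bbc3 -0.010. When single libraries were left out, Mcl1 ran from -0.13 to -0.050, Bbc3 from -0.10 to 0.12 and Cycs from -0.090 to 0.021; Bbc3 was -0.10 without DMEM replicate 2 and -0.033 without RPMI-1640 replicate 2, with no call in either. The cause of these changes was not tested. With the replicate block alone, 7 members, 55 pathway genes and 8432 genes in all were called, against 7, 51 and 8078 without it, and no member's call changed. Across the other alternatives 6 to 8 members, 47 to 58 pathway genes and 6555 to 8968 genes were called, but the number tested differed among these runs. At a mean of at least 5 FPKM the calls were 6 of 8 members, 47 of 63 pathway genes and 6555 of 8485 genes. Without a filter they were 7 of 9, 48 of 85 and 8968 of 15570. With a library left out, 7 to 8 of 9, 46 to 54 of 72 and 7454 to 8011 of 10624 were called. No read was listed for Pmaip1, so depth there gives an upper limit only.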
